A study of Mus musculus with 9 samples.

Results

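DNA replication and nucleotide supply were followed through 46 genes of the counting table, which lists 53465 genes in all. The members were chosen by symbol, and where a symbol stood on several rows (1 member, Pcna, whose processed pseudogenes carry the same shortened symbol) the row with most reads was kept. All 46 were found, and all 46 were among the 11950 genes tested, which are those with a CPM (read count scaled to library size) above 1 in at least 3 libraries. They fall into 7 groups by role, namely origin licensing (10 genes), origin firing and helicase activation (7), polymerases and primase (9), clamp and clamp loader (6), lagging strand and single-strand binding (5), nucleotide synthesis (5) and chromatin assembly and methylation (4).

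RNA was sequenced from 9 libraries of bone marrow derived macrophages (BMDMs) of wild-type male C57BL/6 mice (of the J substrain, by the study's methods), which were grown for 5 to 10 days in DMEM with 10% FBS and CSF1 (50 ng/ml), a growth factor on which macrophages depend for survival and division. UNX macrophages (3 libraries) were left without fibroblast medium. CO-CM macrophages (3) received medium conditioned by pulmonary artery adventitial fibroblasts of control calves at 2 weeks of age, and PH-CM macrophages (3) received medium conditioned by the same kind of fibroblast from calves of that age with hypoxia-induced pulmonary hypertension. The labels disagree on the time of exposure, given both as 16 h and as 24 h, and the study's methods name a time between these. Each conditioned medium was a pool over several fibroblast populations and came from another species than the macrophages, so the 3 libraries of a group repeat the macrophage culture and not the calf. FBS was added to the conditioned media, but whether they held CSF1 is not given in the sources used here. In the comparisons with UNX, fibroblast products and a change of medium or of CSF1 cannot be told apart.

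Before a cell divides, origins of replication are licensed by the origin recognition complex (ORC), CDC6 and CDT1, which load the MCM2-7 helicase onto DNA. CDC7 kinase, CDC45, MCM10 and the GINS complex then turn the loaded helicase into a moving fork. Polymerase alpha starts the new strands, and polymerases delta and epsilon copy on with the sliding clamp PCNA, which replication factor C (RFC) loads. Ribonucleotide reductase, thymidylate synthase and thymidine kinase supply the deoxynucleotides. Most of these genes are transcribed in the late G1 and S phases under the control of E2F factors. CSF1 drives the division of BMDMs in culture, and macrophages that mature or become activated can leave the cell cycle.

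The libraries held 62017933 to 84314201 counted reads, and the smallest total of a group was 62017933 in UNX, 68317274 in CO-CM and 63493877 in PH-CM. Macrophage markers were high in every library, with a summed level of 8 markers of 7989 to 8544 RPKM (read counts scaled by exon length and sequencing depth, as deposited) in UNX, 12540 to 12990 in CO-CM and 14410 to 15250 in PH-CM. Single markers did not all rise, with log2 fold changes from -0.82 to 1.51 under CO-CM and from 0.24 to 1.69 under PH-CM. The 12 granulocyte and progenitor markers summed to 3.17 to 4.88 RPKM in UNX, 4.82 to 6.69 in CO-CM and 4.16 to 5.87 in PH-CM, with Ly6g, which defines granulocytes, at 0 in all 9 libraries and Mpo at 0 in all of the conditioned libraries. The progenitor gene Kit stood at 0.181 to 0.378 RPKM in UNX, 0.194 to 0.255 in CO-CM and 0.0283 to 0.0349 in PH-CM. Of these 12 markers, 2 were among the genes tested, and they went opposite ways. Their log2 fold changes were -3.17 and 1.37 under PH-CM and -0.43 and 1.39 under CO-CM. The value of -0.43 did not meet the limits for a call given below. The 7 lymphocyte markers and the 7 mast cell and erythroid markers stayed at a summed level of at most 0.7 and at most 0.204 RPKM. The 8 fibroblast markers summed to 24.7 to 31.4 RPKM in UNX, 31.6 to 37.5 in CO-CM and 30.5 to 40.1 in PH-CM, most of it Col1a1, and the part of these other markers in the results was not tested. In bulk libraries, fewer cells in S phase and less RNA per cell cannot be told apart.

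Each of the 46 members was lower under both conditioned media than in UNX. Tested with edgeR's quasi-likelihood test with calls made where the Benjamini-Hochberg adjusted p was 0.05 or less and the change 1.2-fold or more, 46 of 46 members fell under PH-CM, where 31.7% of all genes tested were called lower, and 46 of 46 fell under CO-CM, where 28.9% were. No member rose, where 31.3% of all genes tested were called higher under PH-CM and 28% under CO-CM. At a fold of at least 2, 42 members fell under PH-CM (9.8% of all genes tested) and 42 under CO-CM (7.85%). The exceptions at that size were the same under both media, namely Gins4, Rfc1, Rfc2 and Pold3. The members' median log2 fold change was -2.67 under PH-CM, which is 6.38-fold lower, with a range from -4.73 (Uhrf1) to -0.35 (Pold3), and the median over all genes tested was 0.01. Under CO-CM the members' median was -2.22, or 4.65-fold lower, with a range from -3.48 (Uhrf1) to -0.40 (Pold3). Of the members, 34 under PH-CM and 26 under CO-CM fell by more than 2 on the log2 scale, against 3.58% and 2.58% of all genes tested, and 15 and 5 fell by more than 3, against 1.52% and 0.402%. No conditioned library reached any UNX library for any of the 46 members, where 38.8% of all genes tested stood apart downward in that way under PH-CM and 36.7% under CO-CM. Both comparisons use the same UNX libraries.

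**Figure D1:**
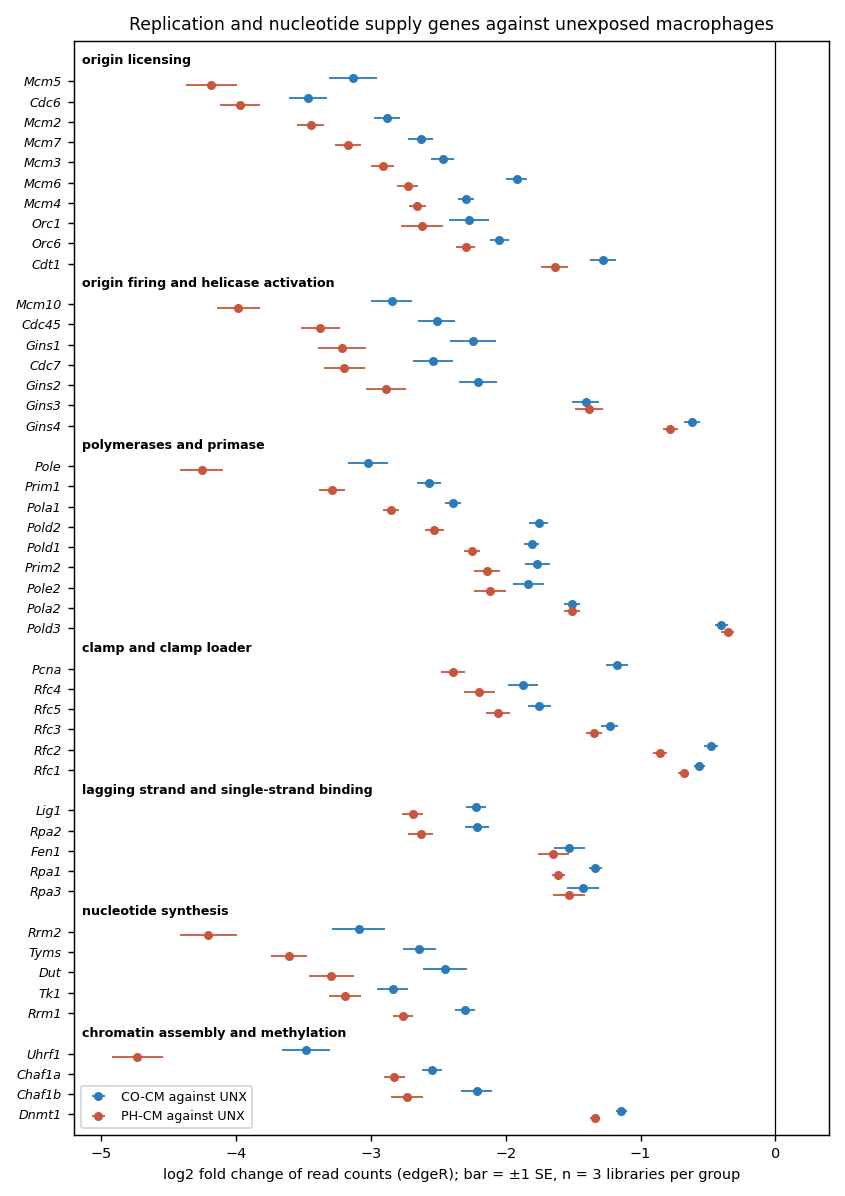
Log2 fold change of read counts of the 46 members under CO-CM (blue) and PH-CM (red) against UNX, by group of members, with 1 SE on each side from the edgeR fit of 3 libraries per group. All points lie left of 0, from -4.73 for Uhrf1 under PH-CM to -0.35 for Pold3 under PH-CM, and 44 of the 46 PH-CM points lie left of the CO-CM point of the same gene.

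For most members the level was lower under PH-CM than under CO-CM. Set directly against CO-CM, PH-CM gave lower levels of 33 members and higher levels of 0, where 15% and 12.2% of all genes tested were called, and for 6 members the difference was at least 2-fold (2.31% of all genes tested). These 6 were Uhrf1, Pole, Pcna, Mcm10, Rrm2 and Mcm5. The members' median log2 fold change was -0.44, or 1.36-fold, against -0.01 over all genes tested, and all 3 PH-CM libraries lay below all 3 CO-CM libraries for 38 members (26.3% of all genes tested). CO-CM replicate 3 was the highest library of its group for 41 of the 46 members. Without it, 27 members were called lower, where 12.7% of all genes tested were, and the median over all 46 was -0.37. Among libraries that share a replicate number, PH-CM lay below CO-CM for 41, 42 and 44 members in numbers 1, 2 and 3. The share over all genes tested was not computed for these counts.

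**Figure D2:**
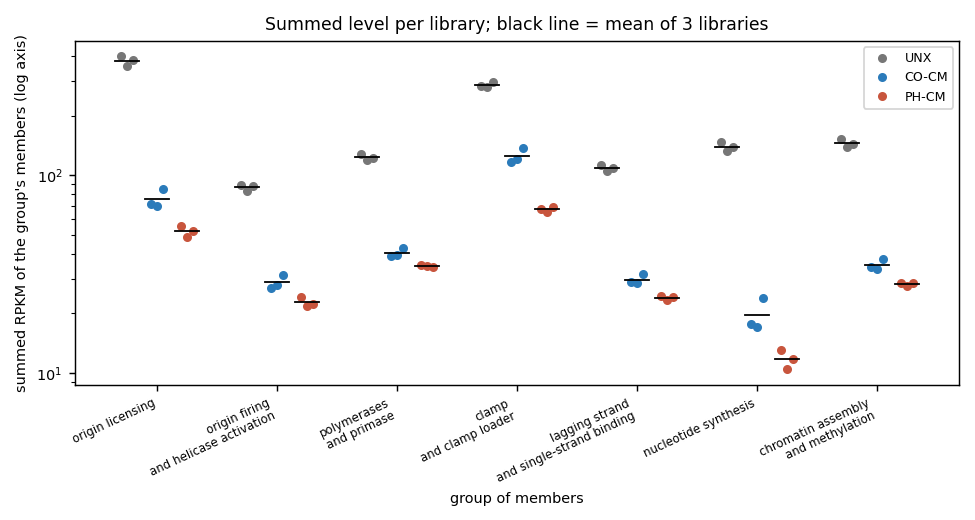
Summed RPKM of the members of each of the 7 groups in every library (points, log axis), with the mean of 3 libraries as a black line, for UNX (grey), CO-CM (blue) and PH-CM (red). In every group the UNX libraries lie above all conditioned libraries, and the 3 PH-CM libraries lie below the 3 CO-CM libraries.

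Summed over all members, the level was 1271 ± 50.8 RPKM (SD, n = 3) in UNX, 354 ± 31.7 in CO-CM and 241 ± 8.59 in PH-CM, which is 27.9% and 19.0% of UNX. Nucleotide synthesis kept the smallest share of its UNX level among the 7 groups, 14.0% in CO-CM and 8.44% in PH-CM. Origin licensing kept 19.9% and 13.7%. Chromatin assembly and methylation kept 24.1% and 19.4%, lagging strand and single-strand binding 27.3% and 22.0%, and origin firing 33.0% and 26.2%. In origin firing most of the sum was Gins4 (log2 fold change -0.78 under PH-CM), with a mean of 15.8 of 22.9 RPKM in PH-CM. By its median gene that group fell 9.17-fold under PH-CM, against 7.06-fold for origin licensing. The clamp and clamp loader kept 43.6% in CO-CM but 23.5% in PH-CM, a sum in which Pcna is most of the level, and polymerases and primase kept 32.9% and 28.1%. Whether these groups differ from one another was not tested.

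Stretches of promoter are shown here for the members in which at least 1 match to an E2F site lies in the 200 bases before the RefSeq start and none of those bases is an annotated exon of the gene. Letters searched were TTTGGCGC, TTTCGCGC, TTTCCCGC and TTTGCCGC on either strand, and matches are in capitals. Sequences are 5′ to 3′ in the direction of the gene, from the RefSeq table of GRCm38.p6. Mcm5 lies at chr8:75109309-75109508 (+), Mcm6 at chr1:128359706-128359905 (-), Uhrf1 at chr17:56304113-56304312 (+, before the second of its 2 starts) and Pola1 at chrX:93632156-93632355 (-).
Mcm5: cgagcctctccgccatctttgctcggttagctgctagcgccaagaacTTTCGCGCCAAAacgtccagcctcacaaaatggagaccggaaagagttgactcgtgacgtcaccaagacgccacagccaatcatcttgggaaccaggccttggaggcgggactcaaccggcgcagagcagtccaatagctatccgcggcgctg
Mcm6: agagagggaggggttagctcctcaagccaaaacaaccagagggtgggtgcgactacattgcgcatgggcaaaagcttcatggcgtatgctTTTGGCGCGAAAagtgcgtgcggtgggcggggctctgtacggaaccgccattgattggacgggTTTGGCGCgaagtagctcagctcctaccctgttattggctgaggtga
Uhrf1: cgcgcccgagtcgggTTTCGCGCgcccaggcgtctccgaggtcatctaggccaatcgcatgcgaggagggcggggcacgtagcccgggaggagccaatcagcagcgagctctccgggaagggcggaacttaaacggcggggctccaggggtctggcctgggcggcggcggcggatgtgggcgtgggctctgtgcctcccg
Pola1: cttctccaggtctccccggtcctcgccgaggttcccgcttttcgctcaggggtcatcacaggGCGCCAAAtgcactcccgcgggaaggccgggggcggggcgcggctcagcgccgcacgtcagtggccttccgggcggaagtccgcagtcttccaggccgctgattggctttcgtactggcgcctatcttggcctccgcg
In Mcm5 and in the upstream block of Mcm6, 2 matches on opposite strands overlap and form 1 run of capitals.

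Promoter windows, which run from 250 bases before to 50 after a start, were at hand for 39 of the 46 members (48 windows). The letters of the E2F site were in at least 1 window of 16 of the 39 members, which is 41.0%, against 2.6% of the 27025 genes with a window and 4.85% of the 9147 of them that were tested. CCAAT, the letters bound by NF-Y, was in 24 of the 39 (61.5%, against 41.1% of all genes and 43.4% of those tested), and TTTGAA or TTCGAA, the letters of the cell cycle homology region, in 9 (23.1%, against 21.7% and 16.5%). Of the members, 10 held both the E2F letters and CCAAT, and 7 held none of the 3 kinds. The median log2 fold change was -2.66 for the 16 members with the E2F letters and -2.73 for the other 23 under PH-CM, and -2.07 and -2.22 under CO-CM. The smallest fall, that of Pold3, and the largest, that of Uhrf1, both belonged to genes with a match. A match is a description of letters and not a site in use.

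**Figure D3:**
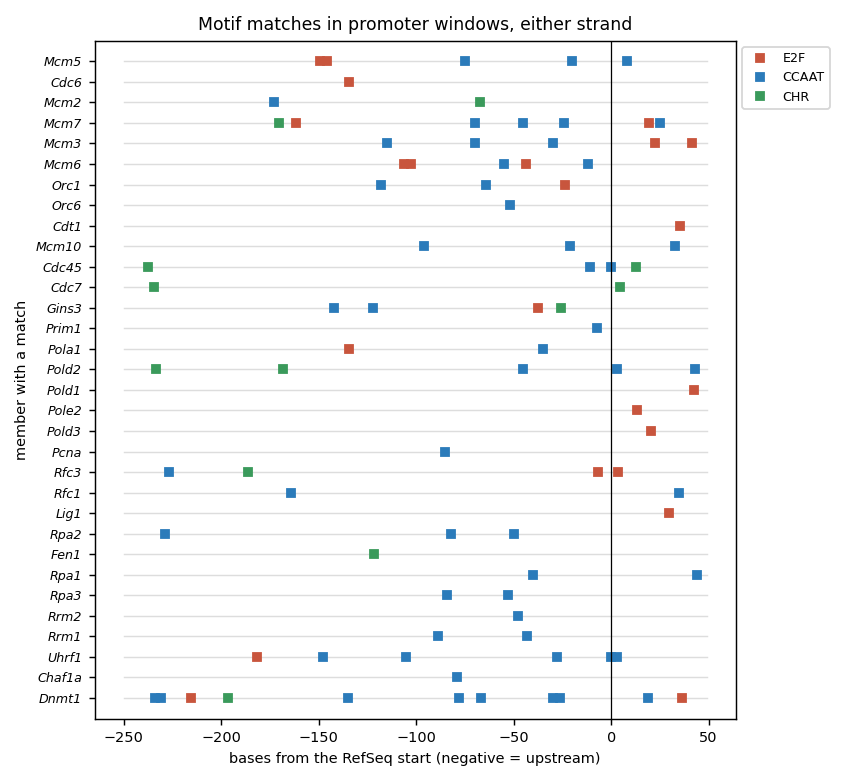
Positions of matches to the E2F letters (red), CCAAT (blue) and the cell cycle homology letters (CHR, green) in the promoter windows of the 32 members with at least 1 match, in bases from the RefSeq start, with the windows of a gene with several starts laid over each other. E2F matches lie on both sides of the start, and several members have all of theirs within the 50 bases after it.

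Origin licensing comprised the 6 subunits of the MCM2-7 helicase, which encircles DNA, 2 subunits of ORC and the loading factors Cdc6 and Cdt1. Mcm5 (chr8:75109569-75128439, GRCm38) stood at 68.9, 60.3 and 64.9 RPKM in UNX, 5.98, 5.83 and 9.24 in CO-CM and 3.98, 2.75 and 3.53 in PH-CM. The UNX libraries were close together, and CO-CM replicate 3 was the highest conditioned library. The log2 fold change was -3.13 ± 0.18 (SE, adjusted p = 1.54e-07) under CO-CM and -4.18 ± 0.19 (SE, adjusted p = 1.89e-08) under PH-CM, and -1.05 ± 0.18 (SE, adjusted p = 0.00105) between PH-CM and CO-CM. Mcm6 was the most abundant helicase subunit in every library, with 78.8, 70.4 and 75.0 RPKM in UNX, 18.4, 17.6 and 20.4 in CO-CM and 12.2, 10.1 and 10.3 in PH-CM. Its log2 fold change under CO-CM, -1.92, was the smallest of the 6, and the difference between PH-CM and CO-CM was -0.81 ± 0.08 (SE, adjusted p = 2.29e-05). Mcm2 had the lowest RPKM of the 6 in every library, with 28.2, 23.6 and 25.7 in UNX, 3.35, 2.92 and 3.77 in CO-CM and 2.49, 2.13 and 2.21 in PH-CM, and fell by 2.88 under CO-CM and 3.45 under PH-CM on the log2 scale. That rank rests in part on exon length, which was 6956 bases for Mcm2, 3589 for Mcm4 and 4426 for Mcm7. In UNX replicate 1, Mcm2 held 12187 reads, more than Mcm4 (11353) or Mcm7 (10658).

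The helicase holds 1 copy of each subunit, and the transcript levels of the 6 moved apart. The ratio of the highest to the lowest of the 6 RPKM values was 2.79 to 2.98 in the UNX libraries, 5.41 to 6.03 in CO-CM and 4.63 to 4.91 in PH-CM. These values were those of Mcm6 and Mcm2 in every library, so the size of the ratio also depends on their exon lengths. Mcm3, Mcm4 and Mcm7 fell by 2.91, 2.66 and 3.17 on the log2 scale under PH-CM. Each of the 6 was also lower under PH-CM than under CO-CM, with differences from -0.36 (Mcm4) to -1.05 (Mcm5). Mcm7 shares 12.6% of its exon length with other genes, among them Ap4m1 and Cops6 on the opposite strand.

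Cdc6, the ATPase that joins ORC to load the helicase, had 8.99, 7.21 and 7.61 RPKM in UNX, 0.624, 0.641 and 0.775 in CO-CM and 0.549, 0.536 and 0.371 in PH-CM. In the conditioned libraries less than 1 RPKM was left, and the fall of 3.47 under CO-CM and 3.97 under PH-CM on the log2 scale was the largest of the loading factors. Cdt1, which brings the helicase to CDC6 and is destroyed in S phase, kept far more, with 42.2, 36.6 and 43.3 RPKM in UNX, 14.4, 15.3 and 18.2 in CO-CM and 12.6, 11.7 and 13.4 in PH-CM. Its log2 fold change was -1.28 under CO-CM and -1.64 under PH-CM. The PH-CM level of both lay below CO-CM (adjusted p = 0.0264 for Cdc6 and 0.0151 for Cdt1), and both calls were lost without CO-CM replicate 3 (adjusted p = 0.104 and 0.055), that of Cdc6 also without PH-CM replicate 3 and with only both media in the fit, and that of Cdt1 also without PH-CM replicate 1 or 2.

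The ORC subunits did not fall alike. Orc1, the largest ORC subunit, had 2.78, 2.33 and 2.73 RPKM in UNX, 0.412, 0.510 and 0.614 in CO-CM and 0.416, 0.394 and 0.411 in PH-CM. Orc6, its smallest subunit, had 14.2, 12.9 and 13.6 RPKM in UNX, 3.21, 2.86 and 3.32 in CO-CM and 2.74, 2.58 and 2.63 in PH-CM. They fell by 2.62 and 2.30 under PH-CM on the log2 scale, and by 2.27 and 2.05 under CO-CM. Of the other ORC subunits, named after their values were seen, Orc2 fell by 1.00 under PH-CM, and Orc3, Orc4 and Orc5 were at -0.13, -0.24 and 0.06 without being called. Orc3 and Orc4 passed the adjusted p of the edgeR test there (0.0364 and 0.00376) but not the 1.2-fold limit. Under CO-CM Orc2 fell by 0.96 and Orc4 by 0.28 (adjusted p = 0.00151), a call of Orc4 that was lost without CO-CM replicate 2 or 3 and with upper-quartile factors, and Orc3 and Orc5 were at -0.04 and -0.16 without being called. Between the media Orc1 differed by -0.35 ± 0.16 (SE, adjusted p = 0.119) with overlapping libraries, and Orc6 by -0.25 ± 0.07 (SE, adjusted p = 0.0165), under the 1.2-fold limit. Orc1 shares 10.8% of its exon length with Gm12743 on the opposite strand. Over all libraries Gm12743 held 806 reads and Orc1 2651.

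Origin firing was led by Mcm10, which helps the helicase to start, with 8.39, 7.10 and 7.58 RPKM in UNX, 0.837, 0.939 and 1.27 in CO-CM and 0.552, 0.405 and 0.442 in PH-CM. The PH-CM libraries were the lowest of the 9. The log2 fold change was -2.85 under CO-CM, -3.98 under PH-CM and -1.14 ± 0.16 (SE, adjusted p = 0.000347) between them. Cdc45, a part of the moving helicase, had 18.3, 16.1 and 15.7 RPKM in UNX, 2.46, 2.42 and 3.46 in CO-CM and 1.45, 1.48 and 1.70 in PH-CM. Cdc7, the kinase that fires origins, had 5.55, 5.37 and 5.71 RPKM in UNX, 0.878, 0.735 and 1.11 in CO-CM and 0.646, 0.463 and 0.632 in PH-CM. They fell by 3.38 and 3.20 on the log2 scale under PH-CM, and both were lower under PH-CM than under CO-CM (adjusted p = 0.00103 and 0.00826).

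GINS joins CDC45 and MCM2-7 in the moving helicase as a complex of 4 subunits. Gins1 had 14.0, 12.0 and 14.0 RPKM in UNX, 2.49, 2.39 and 3.16 in CO-CM and 1.84, 1.23 and 1.07 in PH-CM. Gins2 had 11.3, 10.8 and 11.5 RPKM in UNX, 1.98, 2.01 and 2.94 in CO-CM and 1.55, 1.27 and 1.53 in PH-CM. These subunits fell by 3.22 and 2.89 under PH-CM on the log2 scale. Gins3 fell by 1.38 and Gins4 by 0.78 only. Gins4, with 27.6, 27.7 and 29.1 RPKM in UNX, 16.7, 18.0 and 17.6 in CO-CM and 16.4, 15.5 and 15.4 in PH-CM, had the highest RPKM of the 4 in every library. Before division by exon length, Gins2 held more reads than Gins4 in UNX replicate 1 (2879 against 2306). Between the media Gins1 and Gins2 differed (-0.97 and -0.69), whereas Gins3 was at 0.02, with a 95% interval from -0.21 to 0.25, and turned negative with upper-quartile factors, and Gins4 was at -0.16, from -0.29 to -0.03. Gins2 shares 67.3% of its exon length with Gse1 on the opposite strand. The counting options listed set neither strand nor the handling of reads shared between genes. Reads in the shared part may thus be missing from the value of Gins2, which RPKM still divides by the whole exon length.

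Polymerase epsilon, which makes the leading strand, gave the second largest fall of all members under PH-CM. Its catalytic gene Pole had 8.50, 7.22 and 7.92 RPKM in UNX, 0.765, 0.864 and 1.14 in CO-CM and 0.473, 0.357 and 0.359 in PH-CM. The log2 fold change was -3.02 ± 0.15 (SE, adjusted p = 5.15e-08) under CO-CM and -4.25 ± 0.16 (SE, adjusted p = 4.79e-09) under PH-CM, and the media differed by -1.23 ± 0.16 (SE, adjusted p = 0.000159). The second subunit, Pole2, had 4.83, 4.28 and 4.50 RPKM in UNX, 1.05, 1.25 and 1.33 in CO-CM and 1.11, 0.990 and 0.912 in PH-CM and fell by 1.83 and 2.12 (log2) with no call between the media (adjusted p = 0.0884). Pole3 and Pole4, histone-fold subunits outside the 46 and named after their values were seen, fell by 0.85 and 0.94 under PH-CM.

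Polymerase delta, which makes the lagging strand, held subunits that moved in opposite directions. The catalytic gene Pold1 had 25.0, 23.0 and 23.2 RPKM in UNX, 6.08, 6.53 and 6.77 in CO-CM and 4.86, 4.70 and 4.83 in PH-CM. Its partner Pold2 had 24.9, 23.5 and 24.9 RPKM in UNX, 6.36, 6.86 and 7.44 in CO-CM and 4.16, 4.11 and 3.93 in PH-CM. They fell by 2.25 and 2.53 under PH-CM on the log2 scale. Pold3 had 18.1, 18.8 and 18.4 RPKM in UNX, 13.2, 13.0 and 13.8 in CO-CM and 13.5, 14.1 and 14.0 in PH-CM. Its log2 fold change was the smallest of all 46 members, -0.40 ± 0.05 (SE, adjusted p = 3.18e-05) under CO-CM and -0.35 ± 0.05 (SE, adjusted p = 6.33e-05) under PH-CM. Between the media Pold3 differed by 0.05, with a 95% interval from -0.06 to 0.15. Pold4, the smallest subunit and not one of the 46, was higher under both media, with 22.9, 22.9 and 22.3 RPKM in UNX, 31.1, 36.9 and 35.5 in CO-CM and 32.8, 36.2 and 35.3 in PH-CM. Its log2 fold change was 0.68 ± 0.08 (SE, adjusted p = 2.66e-05) under CO-CM and 0.67 ± 0.08 (SE, adjusted p = 2.15e-05) under PH-CM.

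Polymerase alpha and primase start each new strand with a short primer. The primase catalytic gene Prim1 had 8.73, 8.64 and 8.59 RPKM in UNX, 1.42, 1.26 and 1.48 in CO-CM and 0.970, 0.847 and 0.731 in PH-CM. Its partner Prim2 had 6.98, 6.43 and 6.33 RPKM in UNX, 1.68, 1.72 and 2.12 in CO-CM and 1.53, 1.35 and 1.42 in PH-CM. Prim1 fell by 3.29 and Prim2 by 2.14 under PH-CM on the log2 scale. Between the media both were called lower (-0.72 and -0.37), though without CO-CM replicate 3 the log2 difference of Prim2, -0.25, was under the 1.2-fold limit. The polymerase gene Pola1, with 8.25, 7.49 and 7.54 RPKM in UNX, 1.46, 1.33 and 1.43 in CO-CM and 1.08, 1.06 and 0.959 in PH-CM, fell by 2.85, with a difference between the media of -0.46 ± 0.06 (SE, adjusted p = 0.000244). Its partner Pola2 fell by 1.51 under PH-CM and 1.51 under CO-CM. Pola2 had 7.11, 6.91 and 7.69 RPKM in CO-CM and 7.35, 7.20 and 7.32 in PH-CM, and the 95% interval of the log2 difference between the media ran from -0.13 to 0.13.

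**Figure D4:**
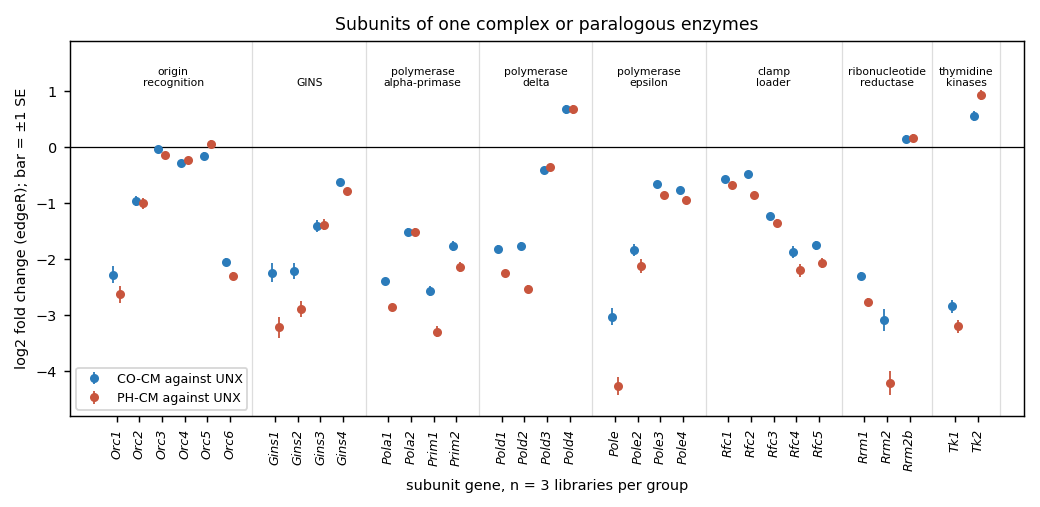
Log2 fold change against UNX under CO-CM (blue) and PH-CM (red) for subunits of 1 complex or for paralogous enzymes, with 1 SE on each side (edgeR, 3 libraries per group), members and partners outside the 46 alike. Pold4 and Tk2 lie above 0 while Pold1 and Tk1 lie far below it, and Orc3, Orc4 and Orc5 lie between -0.28 and 0.06 while Orc1 and Orc6 lie below -2.

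The sliding clamp gene Pcna had the highest RPKM of all members. Pcna (chr2:132249162-132253314, GRCm38) had 223, 219 and 235 RPKM in UNX, 87.1, 90.7 and 108 in CO-CM and 41.2, 39.2 and 43.6 in PH-CM. The 3 groups stood apart, with CO-CM between UNX and PH-CM. The log2 fold change was -1.18 ± 0.08 (SE, adjusted p = 6.61e-07) under CO-CM, -2.39 ± 0.09 (SE, adjusted p = 3.94e-09) under PH-CM and -1.22 ± 0.08 (SE, adjusted p = 2.79e-06) between the media. A processed pseudogene, Pcna-ps2, is 99.2% identical over 781 bases and held 0.716% as many reads as Pcna.

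The loader that opens this clamp has a large subunit, Rfc1, and 4 small ones, Rfc2 to Rfc5. Rfc1 had 20.7, 20.1 and 19.9 RPKM in UNX, 13.0, 13.0 and 13.1 in CO-CM and 12.5, 12.3 and 11.6 in PH-CM. Rfc2 had 10.8, 11.2 and 11.2 RPKM in UNX, 7.32, 7.59 and 7.81 in CO-CM and 5.83, 5.87 and 5.93 in PH-CM. They fell by 0.68 and 0.86 under PH-CM, while Rfc3, Rfc4 and Rfc5 fell by 1.35, 2.20 and 2.06 on the log2 scale. The ratio of the highest to the lowest of the 5 RPKM values rose from 2.20 to 2.40 in the UNX libraries to 4.91 to 5.94 in CO-CM and 5.46 to 6.87 in PH-CM. Between the media Rfc2 and Rfc5 were called lower (-0.38 and -0.31), the latter not when CO-CM replicate 3 was left out (adjusted p = 0.0795), nor without CO-CM replicate 2 or PH-CM replicate 1 or 2. Rfc1 was at -0.12, Rfc3 at -0.12 and Rfc4 at -0.32, and the uncalled Rfc4 (adjusted p = 0.0512) was close to the threshold. Rfc4 was called lower with the replicate number as a block (adjusted p = 0.0372), by DESeq2 and the edgeR exact test, with DESeq2 size factors or upper-quartile factors, and without CO-CM replicate 3 or PH-CM replicate 1. Rfc2, Rfc4 and Rfc5 share 15.1%, 12.7% and 10.7% of their exon length with Lat2, Eif4a2 and Wsb2 on the opposite strand, each of which held more reads.

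On the lagging strand, Lig1, the ligase that joins Okazaki fragments, had 45.2, 42.5 and 44.4 RPKM in UNX, 8.41, 8.42 and 10.1 in CO-CM and 6.91, 6.41 and 6.34 in PH-CM. It fell by 2.22 under CO-CM and 2.69 under PH-CM on the log2 scale, and the media differed by -0.47 ± 0.07 (SE, adjusted p = 0.00069). Fen1, the nuclease that removes the flap before ligation, had 4.20, 3.45 and 3.15 RPKM in UNX, 1.26, 1.13 and 1.16 in CO-CM and 1.15, 1.04 and 1.12 in PH-CM, and fell by 1.53 and 1.65. Its level is uncertain, since 84.2% of its exon length is shared with Gm10143 and Tmem258 on the opposite strand. Replication protein A, which coats single-stranded DNA as a trimer, fell unequally, Rpa2 by 2.63, Rpa1 by 1.61 and Rpa3 by 1.53 under PH-CM. Rpa1 was the most abundant of the 3 in every library, with 33.7, 31.5 and 33.0 RPKM in UNX, 12.3, 12.0 and 12.7 in CO-CM and 10.9, 9.64 and 10.4 in PH-CM. Between the media Rpa2 (-0.42) and Rpa1 (-0.27) were called lower and Rpa3 was not (-0.10, 95% interval from -0.37 to 0.17), and without CO-CM replicate 3 the log2 difference of Rpa1, -0.25, was under the 1.2-fold limit, as it was without PH-CM replicate 2 and with library size alone.

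All 5 genes of nucleotide synthesis were lower under PH-CM than under CO-CM. Rrm2, the small subunit of ribonucleotide reductase that is made in S phase, had 74.6, 64.9 and 68.3 RPKM in UNX, 6.68, 6.60 and 9.92 in CO-CM and 4.70, 2.65 and 3.47 in PH-CM. The log2 fold change of Rrm2 was -3.09 ± 0.20 (SE, adjusted p = 3.12e-07) under CO-CM, -4.21 ± 0.21 (SE, adjusted p = 3.59e-08) under PH-CM and -1.12 ± 0.20 (SE, adjusted p = 0.00139) between the media. The large subunit Rrm1 had 29.9, 28.2 and 28.8 RPKM in UNX, 5.31, 5.17 and 6.26 in CO-CM and 4.19, 3.89 and 4.22 in PH-CM, and fell by 2.30 and 2.76. By RPKM, Rrm1 stood at 0.401 to 0.434 of the level of Rrm2 in the UNX libraries, at 0.632 to 0.795 in CO-CM and at 0.892 to 1.47 in PH-CM. In 2 of the 3 PH-CM libraries Rrm1 was the higher by RPKM. That order depends on exon length, 11012 bases for Rrm1 and 2771 for Rrm2. By read count Rrm1 was the higher in every library, with 20418 against 12824 in UNX replicate 1. The shift of the ratio between the groups does not depend on exon length. Rrm2b, the alternative small subunit that supplies cells outside S phase and was named after its values were seen, had 1.52, 1.39 and 1.44 RPKM in UNX, 1.63, 1.55 and 1.42 in CO-CM and 1.63, 1.49 and 1.57 in PH-CM and was not called under either medium.

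Tyms, the thymidylate synthase, had 5.94, 6.03 and 6.20 RPKM in UNX, 0.767, 0.922 and 1.08 in CO-CM and 0.496, 0.409 and 0.526 in PH-CM. Tyms fell by 2.64 and 3.61 on the log2 scale, and stretches of up to 361 bases are at least 95% identical to transcripts of other genes, the pseudogene Tyms-ps (677 bases) aside, so that reads may be shared. Tk1, the cytosolic thymidine kinase, had 18.8, 19.2 and 19.2 RPKM in UNX, 2.31, 2.21 and 3.09 in CO-CM and 2.20, 1.96 and 1.85 in PH-CM. It fell by 2.84 and 3.19, and its difference between the media was -0.36 ± 0.12 (SE, adjusted p = 0.035), which was not called without CO-CM replicate 3 (adjusted p = 0.0751), PH-CM replicate 2 or PH-CM replicate 3, nor with only both media in the fit. Dut, the enzyme that keeps uracil out of DNA by cleaving dUTP, had 17.4, 14.7 and 15.8 RPKM in UNX, 2.60, 2.12 and 3.58 in CO-CM and 1.42, 1.53 and 1.73 in PH-CM, and fell by 2.45 and 3.29, with -0.84 ± 0.17 (SE, adjusted p = 0.0032) between the media.

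Behind the fork, DNA is packed and remethylated. Uhrf1, which reads half-methylated DNA and recruits DNMT1, gave the largest fall of all members, with 55.1, 48.4 and 51.8 RPKM in UNX, 3.48, 3.96 and 5.77 in CO-CM and 2.18, 1.57 and 1.86 in PH-CM. The log2 fold change was -3.48 ± 0.18 (SE, adjusted p = 6.85e-08) under CO-CM and -4.73 ± 0.19 (SE, adjusted p = 8.15e-09) under PH-CM, and -1.25 ± 0.18 (SE, adjusted p = 0.000348) between PH-CM and CO-CM. Dnmt1, the maintenance methyltransferase, kept more, with 56.8, 53.8 and 55.7 RPKM in UNX, 24.4, 23.2 and 24.1 in CO-CM and 21.0, 21.0 and 21.1 in PH-CM. It fell by 1.14 and 1.34, and its difference between the media was -0.20 ± 0.04 (SE, adjusted p = 0.00267), under the 1.2-fold limit although the 3 PH-CM libraries lay below the 3 CO-CM libraries.

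The chromatin assembly factor places histones on new DNA through Chaf1a and Chaf1b. Chaf1a had 28.2, 26.1 and 26.1 RPKM in UNX, 4.15, 4.08 and 4.84 in CO-CM and 3.69, 3.38 and 3.82 in PH-CM. Chaf1b had 12.4, 11.4 and 11.3 RPKM in UNX, 2.21, 2.15 and 2.82 in CO-CM and 1.74, 1.45 and 1.89 in PH-CM. They fell by 2.83 and 2.73 under PH-CM and by 2.55 and 2.22 under CO-CM. Between the media they differed by -0.28 and -0.52, the former not called without CO-CM replicate 3 (adjusted p = 0.0501) or PH-CM replicate 1 or 2. Chaf1a shares 52.5% of its exon length with Ubxn6 on the opposite strand.

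**Figure D5:**
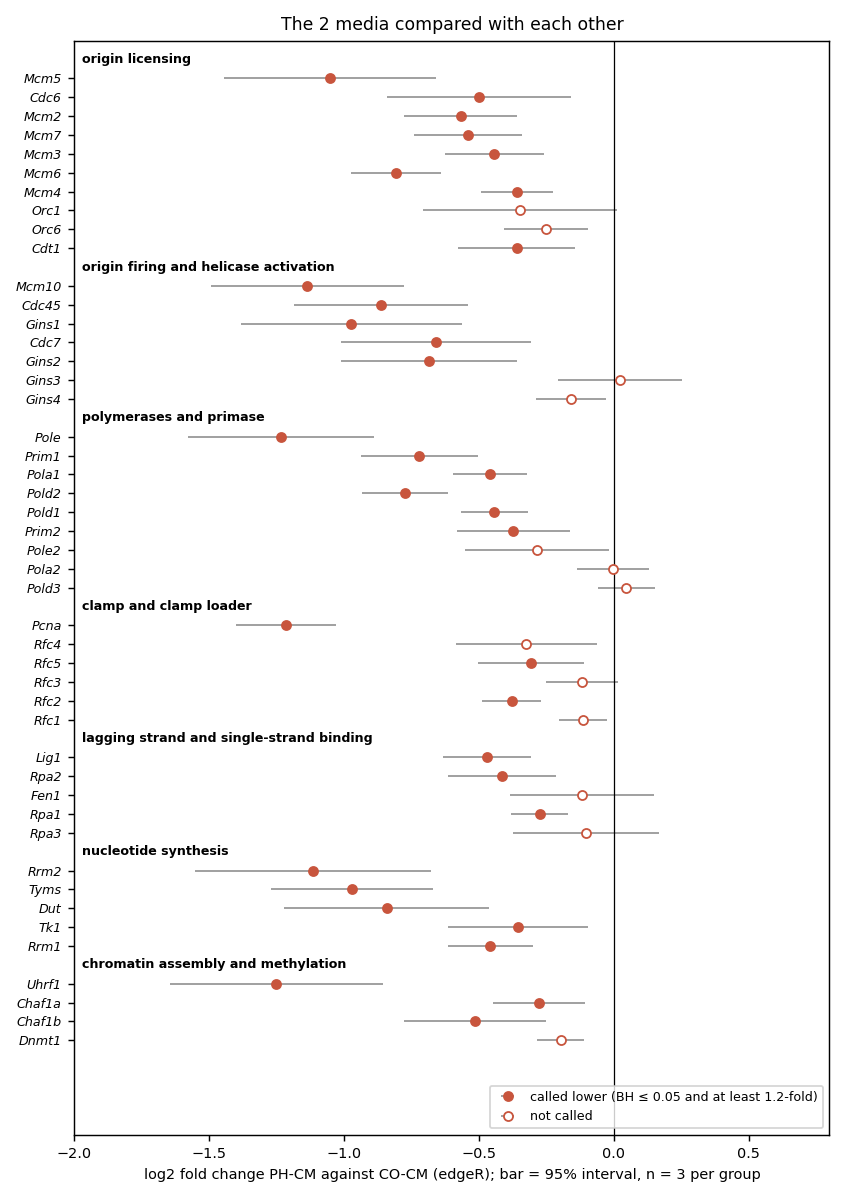
Log2 fold change of the 46 members in PH-CM against CO-CM with its 95% interval (edgeR, 3 libraries per group). Filled points (33) were called lower and open points (13) were not called, and the largest differences are those of Uhrf1 (-1.25), Pole (-1.23) and Pcna (-1.22).

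The 13 members that were not called between the media were Orc1, Orc6, Gins3, Gins4, Rfc1, Rfc3, Rfc4, Pole2, Pola2, Pold3, Fen1, Rpa3 and Dnmt1. Of these, Orc6, Rfc1 and Dnmt1 passed the adjusted p but not the 1.2-fold limit. Of the 33 that were called, 26 were called under each of the other settings and without each library in turn, the doubled fold limit aside, and the other 7 were Cdc6, Cdt1, Rfc5, Prim2, Rpa1, Tk1 and Chaf1a. A missed threshold does not show equal levels, and for Orc1, Rfc4 and Pole2 the 95% interval reached -0.71, -0.58 and -0.55 on the log2 scale.

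The shares of all genes tested that were called, against which the counts of the following lists are to be read, were 31.7% lower and 31.3% higher under PH-CM and 28.9% lower and 28% higher under CO-CM. Most other genes of the fork were lower. Of 31 other origin and fork genes, 25 fell and 1 rose under PH-CM, and 27 fell and 1 rose under CO-CM, with a median log2 fold change of -1.41 and -1.57. The largest falls under PH-CM were those of Pclaf, a PCNA-binding protein (-4.53), Clspn, a fork checkpoint mediator (-3.92), and Dscc1, a subunit of an alternative clamp loader (-3.77). The gene that rose was Pold4. All 9 other genes of nascent chromatin fell under both media, where 31.7% and 28.9% of all genes tested did, led under PH-CM by Asf1b, a histone chaperone (-3.64), Hells, a chromatin remodeler (-3.59), and Rbbp7, a histone-binding protein (-1.60).

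Among other genes of deoxynucleotide supply, of 14 tested (Pnp was below the count limit), 8 fell and 3 rose under PH-CM, and 8 fell and 2 rose under CO-CM. The shares that rose were below the 31.3% and 28% of all genes tested. Under PH-CM the genes that fell included Ung, which excises uracil from DNA (-4.42), and Dctd, which makes dUMP (-2.29). Those that rose were Tk2, the mitochondrial thymidine kinase, Dguok, the mitochondrial deoxyguanosine kinase, and Samhd1, which breaks down deoxynucleotides. Tk2 had 7.69, 9.59 and 8.92 RPKM in UNX, 11.9, 12.9 and 12.0 in CO-CM and 14.7, 17.4 and 16.1 in PH-CM, and its log2 fold change was 0.56 under CO-CM and 0.93 under PH-CM, opposite to that of Tk1. Dguok was at 0.54 and 0.38, and Samhd1 at 0.31 under PH-CM, a call that was lost without UNX replicate 1 (log2 difference 0.257).

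In de novo purine and pyrimidine synthesis, which serves RNA as well as DNA, 15 of 17 genes fell and 2 rose under PH-CM, and 15 fell and 1 rose under CO-CM, with medians of -1.06 and -0.74. The genes called lower over all genes tested were 31.7% and 28.9%, and those called higher 31.3% and 28%. The largest falls under PH-CM were those of Ctps, the CTP synthase (-2.53), Prps1, which makes the ribose donor (-2.12), and Impdh2, the growth-linked IMP dehydrogenase (-1.78). The paralogues Ctps2 and Impdh1 did not follow. Ctps2 rose by 0.57 under PH-CM and 0.50 under CO-CM. Impdh1 had 33.0, 35.8 and 33.7 RPKM in UNX, 24.4, 26.6 and 27.7 in CO-CM and 42.5, 50.2 and 48.2 in PH-CM, and was the only gene of these pathway lists called in opposite directions, -0.31 ± 0.08 (SE, adjusted p = 0.00546) under CO-CM and 0.52 ± 0.08 (SE, adjusted p = 0.00016) under PH-CM, with 0.83 ± 0.08 (SE, adjusted p = 2.81e-05) between the media. Its CO-CM call was lost without CO-CM replicate 1 (log2 difference -0.24, adjusted p = 0.02).

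The E2F factors and pocket proteins, which switch the replication genes on and off, were 14 genes, of which 12 fell and 1 rose under PH-CM and 12 fell under CO-CM, where 31.7% and 28.9% of all genes tested were called lower. The largest falls were those of the repressors E2f7 (-4.42) and E2f8 (-3.84) and of Mybl2 (-4.09), a transcription factor of S phase genes, and the gene that rose was Rbl2 (0.37), a pocket protein of resting cells. Of 9 repair and bypass polymerases, 2 fell and 2 rose under PH-CM, and 3 fell and 3 rose under CO-CM, which is near the shares over all genes tested. Those called under PH-CM were Polq (-3.79) and Polh (-1.82), which fell, and Polm (0.49) and Rev3l (0.35), which rose. Of 8 genes of mitochondrial DNA replication, 2 fell under each medium, which is near the 31.7% and 28.9% of all genes tested. They were under PH-CM Tfam (-0.52) and Ssbp1 (-0.28), a call of Ssbp1 that was lost when UNX replicate 3 or PH-CM replicate 2 was left out, and the median log2 fold change of the 8 was -0.10 under both.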

How the data were processed

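RNA of 9 BMDM libraries (3 UNX, 3 CO-CM, 3 PH-CM) was sequenced as paired reads. Per the labels and the study's methods, the authors ran FastQC and AfterQC on the reads, aligned these to mouse GRCm38 with STAR and counted exon reads per gene with featureCounts 1.6.2, and the deposited read counts are those values with no normalization. The deposited RPKM values are the authors' counts scaled by exon length and depth. They were used here to give levels per library and their sums by group, and to compare levels between genes. RPKM is divided by the whole annotated exon length of a gene, so ranks between genes rest in part on that length. The tests and fold changes used the read counts. The study's methods list the options of featureCounts, and none of those listed sets strand, read pairs or the handling of reads shared between genes. Between 81.4% and 83.8% of low counts were even numbers, as when both mates of a pair are counted. Tables of the authors' own comparisons, which hold fold changes and p-values, were not used.

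The counts were fitted with edgeR 4.0.16 (R 4.3.3, TMM, quasi-likelihood test, all 9 libraries in one fit, a mean per group), with p-values adjusted over all 11950 genes tested. SE is the log2 fold change divided by the root of F, and intervals are 95%. DESeq2 1.42.0 and the edgeR exact test were alternatives. The procedure was tested on simulated counts, drawn independently for each library and with few genes changed. Those counts held no deviation shared by same-numbered libraries, so they cannot show how the procedure behaves where there is one. Depth was 62017933 to 84314201 reads per library. Replicate numbers mark repeats of the experiment, and same-numbered libraries deviated together (r from 0.276 to 0.484 over genes). The p-values measure the spread between these repeats. Gene models are from GENCODE, promoter windows from RefSeq (GRCm38.p6), and similar transcripts were searched with blastn 2.17.0 (at least 95% identity over at least 200 bases).

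All 46 members are named. Of each other list, the 3 largest called falls and rises under PH-CM and any gene called in opposite directions are named, except for 1 gene that is not reported here. The members and lists were chosen with earlier results of these data known.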

Additional observations from a re-analysis of the deposited data

How the results depend on the processing

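All 46 calls against UNX were kept under both media with each of the other scalings, filters and tests and without each library in turn, and only a fold limit of 2 removed any (Gins4, Rfc1, Rfc2 and Pold3). The members' median log2 fold change under PH-CM was -2.64 with upper-quartile factors, -2.73 with library size alone, -2.72 with no filter on low counts and -2.71 with filterByExpr, and ran from -2.716 to -2.637 without single libraries. With the replicate number as a block (replicate block), the medians were -2.67 under PH-CM, -2.22 under CO-CM and -0.44 between the media, 34 members were lower in PH-CM than in CO-CM (Rfc4 added), where 16.4% of all genes tested were, and no other member's call changed. That count was 27 to 35 without single libraries (27 without CO-CM replicate 3, 28 without PH-CM replicate 2), where 12.7% to 15.5% of all genes tested were called lower. It was 6 at a fold of at least 2, against 2.31% of all genes tested. Between the media, Gins3 turned to -0.0148 with upper-quartile factors and ran from -0.0725 to 0.1033 without single libraries, Pola2 turned to 0.011 with library size alone and to 0.004 when only both media were fitted and ran from -0.0296 to 0.0486, and Rpa3 ran from -0.1743 to 0.0281. Under CO-CM, Orc3 turned to 0.0284 with upper-quartile factors, and Rev3l, uncalled, turned to -0.0579 with library size alone, -0.029 with no filter and -0.0218 with filterByExpr and ran from -0.0893 to 0.0974.

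Summed as TMM-scaled CPM in place of RPKM, the percent of UNX was 26.4 (CO-CM) and 19.1 (PH-CM) for origin firing, 48.7 and 29.6 for the clamp and its loader, 29.5 and 23.4 for the lagging strand and 29.96 and 24.6 for chromatin, and in PH-CM 27.2 for polymerases, 10.97 for nucleotide synthesis and 20.1 for all members. In the last 100 bases of the promoter windows, CCAAT was found for 15 members (38.5%, against 17.7% of genes tested), the cell cycle homology letters for 3 (7.69%, against 4.6%) and the E2F letters for 12 (30.8%, against 1.65%). The causes of these changes were not tested. All 46 members passed the filter on low counts at this depth, and 3 libraries a group limit the exact permutation test of a single gene to p = 0.1.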
